A study of Mus musculus with 2 samples.

Results

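MiR-23a, miR-23b, miR-27a, miR-27b and miR-24 come from a pair of paralogous clusters, one on mouse chromosome 13 and the other on chromosome 8. Their precursors were taken from the miRDeep2 tables of 2 samples of E9.5 WT hearts by the name of the mature miRNA, without the copy number and the arm. The rule gave 8 precursor entries of 568 in replicate 1, 8 of 523 in replicate 2, and the same 8 of the 471 precursors listed in both. Each cluster held 4 of them. Both samples were total RNA of hearts of wild type C57BL/6 embryos, and their small RNAs were sequenced after a TruSeq small RNA preparation. There was 1 group and no control or treated samples, and the labels do not say whether the replicates are separate pools of embryos, so every p-value below measures only the difference between these libraries.

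A miRNA gene is transcribed as a hairpin that Drosha and DGCR8 cut out in the nucleus and Dicer trims to a short duplex in the cytoplasm. The strand of the duplex that is kept in an Argonaute protein is the mature miRNA, and its partner, the star strand, is mostly degraded. The 5p and 3p arms are named by the side of the hairpin they come from, and bases 2 to 8 of an arm, its seed, pair with target mRNAs. The miR-23, miR-27 and miR-24 clusters are known for their expression in endothelial cells and blood vessels, and miR-27b is also known from the myocardium of the embryonic heart, where it acts on Mef2c.

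The chromosome 13 cluster held miR-23b, miR-27b and miR-24-1 in this order on the plus strand of mm9, within 781 bases from 63401800 to 63402580. It lies in introns of the protein-coding gene 2010111I01Rik (63066253 to 63427404), on the same strand. The chromosome 8 cluster held miR-23a, miR-27a and miR-24-2 within 370 bases from 86732426 to 86732795, again on the plus strand. GENCODE vM1 places no protein-coding gene over it, and the nearest ones are Zswim4, 1781 bases further on, and Nanos3, 31974 bases before it, both on the minus strand. The hairpins of miR-27 and miR-24 are shown because their arms carry the main differences between the clusters, with the arm listed with more reads in capitals and the position in mm9 after each name.
miR-27b, chr13:63402026-63402088, plus strand: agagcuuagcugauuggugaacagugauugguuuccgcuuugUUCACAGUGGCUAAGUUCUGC
miR-27a, chr8:86732584-86732645, plus strand: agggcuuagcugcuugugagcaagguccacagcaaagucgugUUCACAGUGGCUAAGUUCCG
miR-24-1, chr13:63402521-63402580, plus strand: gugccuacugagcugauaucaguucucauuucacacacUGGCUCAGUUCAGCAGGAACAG
miR-24-2, chr8:86732738-86732795, plus strand: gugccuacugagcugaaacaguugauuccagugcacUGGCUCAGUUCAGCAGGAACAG

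The arms sequenced from these hairpins fall into seed groups, shown here as the most frequent sequence in the tables with the seed in capitals. Each was the same in both replicates.
miR-23b-3p: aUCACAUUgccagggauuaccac
miR-23a-3p: aUCACAUUgccagggauuucca
miR-27b-3p: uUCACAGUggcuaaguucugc
miR-27a-3p: uUCACAGUggcuaaguuccg
miR-24-3p: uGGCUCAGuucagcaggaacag
miR-27b-5p: aGAGCUUAgcugauuggugaaca
miR-27a-5p: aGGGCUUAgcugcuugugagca
miR-24-1-5p: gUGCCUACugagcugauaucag
miR-24-2-5p: gUGCCUACugagcugaaacag
The 3p arms of a pair share their seed, and no other arm with at least 20 reads in a replicate had the seed of miR-23-3p, miR-27-3p or miR-24-3p. Counted from 1 at the 5′ end, miR-23a-3p and miR-23b-3p differed by U19A over the bases they have in common, and miR-27a-3p and miR-27b-3p by C19U. The 5p arms of miR-27a and miR-27b differed within the seed, and those of miR-24-2 and miR-24-1 only from base 17 on. MiR-24-3p was the same from both clusters. All 3 of miR-27a-5p, miR-27b-3p and miR-24-3p were identical to their RefSeq entries (GRCm38.p6), and the other arms shown began at the RefSeq start with 1 base more or less at the 3′ end, except miR-23b-3p, which has no entry in the table used.

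MiR-27b-3p was the most abundant arm of both clusters, at 36361 reads in the first replicate and 30701 in the second. The share of this arm was 0.670% ± 0.068 (SD, n = 2) of all arm reads, the mature and star reads of all precursors together, which came to 5066385 and 4938282. These totals count a sequence listed at several hairpins at each of them. The share of a single arm is therefore lower than with each sequence counted once. Among all arms with each sequence counted once it ranked 20 of 780 in replicate 1 and 21 of 738 in replicate 2, just below miR-218-5p in both. MiR-24-3p followed with 12005 and 11363 reads, a share of 0.234% ± 0.005 (SD, n = 2) and rank 45 in both replicates. These counts cannot be divided between its loci, since both loci give the same sequence.

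The next 3 arms lay close together. MiR-23a-3p had 3664 and 3813 reads (0.0748% ± 0.0035), miR-27a-3p had 3482 and 3222 (0.0670% ± 0.0025), and miR-23b-3p had 2654 and 2809 (0.0546% ± 0.0032; SD, n = 2 for each). Their ranges over the replicates did not overlap, and their order was the same in both. MiR-27a-5p came next with 2318 and 2343 reads (0.0466% ± 0.0012; SD, n = 2), so a 5p arm stood beside the 3p arms in level.

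The other 5p arms were far lower. MiR-24-2-5p had 913 and 802 reads, miR-27b-5p had 286 and 300, and miR-23b-5p, miR-24-1-5p and miR-23a-5p had between 8 and 34. The counts of miR-23b-5p (19 and 34) overlapped those of miR-24-1-5p (24 and 29), so their order is not known. Summed by seed, miR-27-3p held 0.737% ± 0.070, miR-24-3p 0.234% ± 0.005 and miR-23-3p 0.129% ± 0.007 of arm reads (SD, n = 2 for each), in the same order in both replicates.

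**Figure D1:**
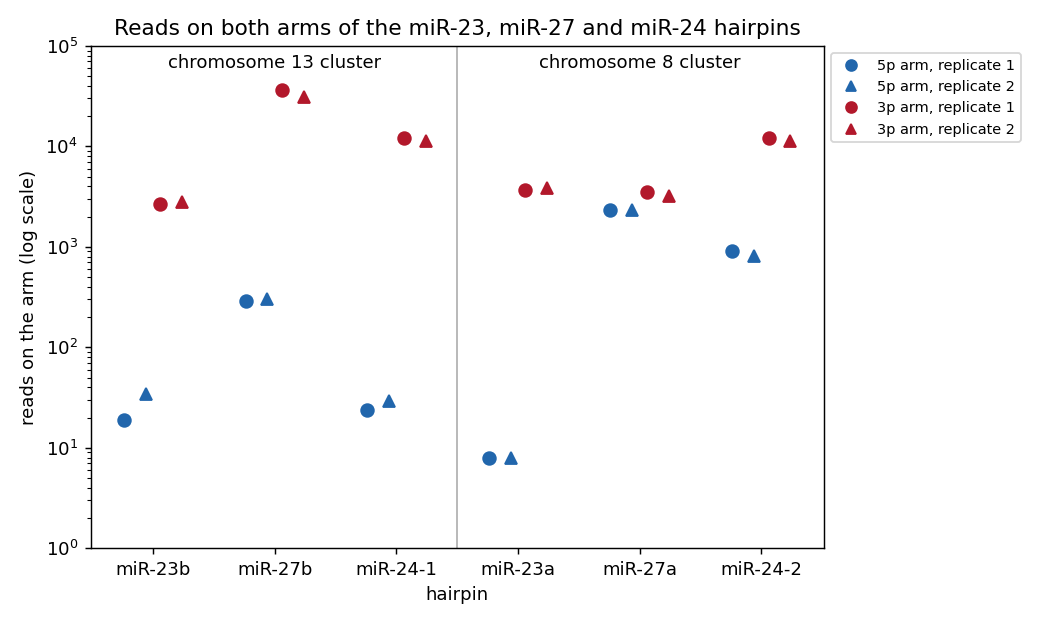
Reads on the 5p arm (blue) and the 3p arm (red) of each hairpin, on a log scale, with a circle for replicate 1 and a triangle for replicate 2. MiR-27b-3p stands highest at 36361 and 30701 reads, miR-27a is the hairpin whose arms lie closest together, and the miR-24-3p points are the same reads drawn at both loci.

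The tables list miR-24-3p 4 times in each replicate. Besides the known hairpins miR-24-1 and miR-24-2, an alternative hairpin was listed at each locus, in which the miR-24-3p sequence forms the 5′ side. The alternative hairpin on chromosome 8 (86732774 to 86732842) had a miRDeep2 score, the log-odds that a hairpin is a true precursor, of 2 in both replicates. That on chromosome 13 (63402559 to 63402632) scored -5.1 in both, whereas miR-24-2 scored 6500 and 6200 and miR-24-1 scored 6100 and 5800. All 4 entries carried the same 12005 and 11363 reads on miR-24-3p. The alternative hairpins had 0 reads on the opposite arm, which allows a share of up to 0.0250% of their arm reads in replicate 1 and 0.0264% in replicate 2. With miR-24-3p counted once, the clusters held 61734 and 55424 arm reads, or 1.17% ± 0.07 (SD, n = 2), and summing the 8 entries as listed gave 1.87% ± 0.08 (SD, n = 2). The total of arm reads behind both shares still holds every repeated entry. With each mature sequence once in the clusters and in the total alike, the mean share was 1.59%. All values for miR-24 below use the known hairpins.

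The split of reads between the arms set miR-27a apart from miR-27b, miR-23a and miR-23b. MiR-27a had 2318 reads on the 5p and 3482 on the 3p arm in replicate 1, and 2343 and 3222 in replicate 2, so its 5p arm took 40.0% (95% Clopper-Pearson interval 38.7 to 41.2%) and 42.1% (40.8 to 43.4%) of the arm reads. MiR-27b, its paralog, had 286 reads on the 5p arm against 36361 on the 3p arm in replicate 1 and 300 against 30701 in replicate 2. Its 5p arm thus took 0.780% (0.693 to 0.876%) and 0.968% (0.862 to 1.083%). The means were 41.0% ± 1.5 for miR-27a and 0.874% ± 0.132 for miR-27b (SD, n = 2 for each). The intervals of the paralogs were far apart in each replicate, though an exact permutation test of 2 against 2 values can reach no p below 0.333. Here as elsewhere, intervals and the limits of a count of 0 cover counting error only, since PCR reads without molecular identifiers are not independent molecules. The arms also differ in sequence, and a small RNA library need not capture them alike. How much of the split this makes up was not tested.

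MiR-23a and miR-23b both used the 3p arm almost alone. MiR-23a had 8 reads on the 5p arm in each replicate, 0.218% (0.0941 to 0.4288%) and 0.209% (0.0904 to 0.412%) of its arm reads. MiR-23b had 19 and 34, or 0.711% (0.4285 to 1.108%) and 1.196% (0.830 to 1.667%). The intervals of both met in replicate 1 and were separate in replicate 2. At the miR-24 loci the 5p arms can be told apart but the 3p arms cannot. Of its own reads and all miR-24-3p reads together, miR-24-2-5p made up 7.07% and 6.59%, and miR-24-1-5p made up 0.200% and 0.255%. As part of the 3p reads belongs to the other locus, each is a lower bound on the 5p use of its own locus.

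Among the 247 precursors with at least 100 arm reads in each replicate, each dominant sequence counted once, the median share of the minor arm was 1.74%, and the upper quartile was 11.4%. Only 11 of them divided their reads more evenly than miR-27a. Of the 70 with more than 5000 arm reads in each replicate, 1 did so. MiR-23b was exceeded by 145 precursors, miR-27b by 149 and miR-23a by 181. Hence miR-23a, miR-23b and miR-27b lay below the median and miR-27a near the top. The places of miR-24-1 and miR-24-2 are not known, since their 3p reads cannot be divided. The 3p arm had more reads in all 4 hairpins of miR-23 and miR-27.

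**Figure D2:**
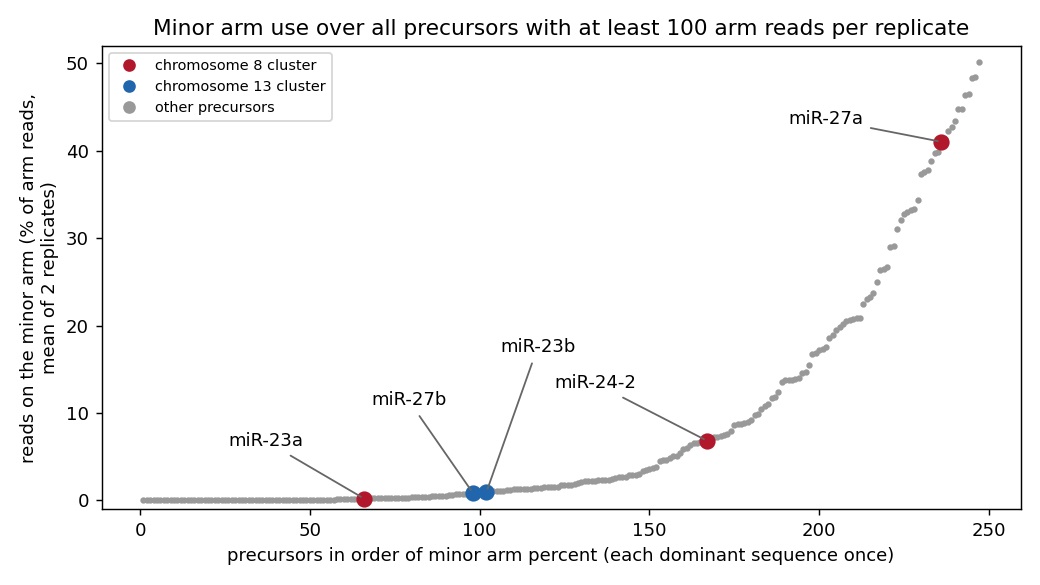
Share of the minor arm in the arm reads (mean of 2 replicates) for 247 precursors in rising order, with members of the chromosome 8 cluster in red and of the chromosome 13 cluster in blue. MiR-27a lies at 41.0% near the upper end while its paralog miR-27b lies at 0.874%; miR-24-2 is drawn at its lower bound, and miR-24-1 has no point of its own because its 3p sequence is the same.

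The miRDeep2 labels for miR-27a differed between the tables. In replicate 1 the 3p arm with 3482 reads was listed as mature, and in replicate 2 the 5p arm with 2343 reads was listed as mature and the 3p arm with 3222 as star, although the 3p arm had more reads in both. Star reads exceeded mature reads in 8 of 568 entries of replicate 1 and 11 of 523 of replicate 2. Opposite arms were listed as mature in 11 of the 471 shared precursors. Of those, 4 had at least 100 arm reads in each replicate, and in 3 of these 4 the same arm held more reads in both. Mature and star reads were therefore compared here by arm.

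The hairpins of miR-27a and miR-27b differed more on the 5p than on the 3p arm. Compared base by base from the 5′ end without gaps, the 5p arms differed at 8 of 22 positions and the 3p arms at 1 of 20. The 5p arms run 1 base out of step near their 3′ ends, so a comparison with a gap would count fewer differences. RNAfold gave minimum free energies of -25.6 kcal/mol for miR-27a and -25.0 kcal/mol for miR-27b, with 20 of 22 and 21 of 23 bases of the 5p arm paired. The GC content was 53.2% for the hairpin of miR-27a and 46.0% for that of miR-27b. Both 3p arms began with U and both 5p arms with A. Among the first 4 bases of the 5p arm, 1 was A or U in miR-27a and 2 in miR-27b, against 3 in both 3p arms. Over the 247 precursors, 46.6% of dominant arms and 21.1% of minor arms began with U.

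The part that each cluster contributed was different for each pair and for each arm. For miR-23-3p, the chromosome 13 copy miR-23b gave 42.0% (40.8 to 43.2%) of the reads of both copies in replicate 1 and 42.4% (41.2 to 43.6%) in replicate 2. For miR-27-3p, the chromosome 13 copy miR-27b gave 91.3% (91.0 to 91.5%) and 90.5% (90.2 to 90.8%). Reads of miR-27b-3p were 9.99 ± 0.65 times those of miR-27a-3p (SD, n = 2), whereas reads of miR-23b-3p were 0.731 ± 0.009 times those of miR-23a-3p (SD, n = 2). The tables do not give read lengths, and a read that ends before base 19 cannot be told apart between miR-23a-3p and miR-23b-3p or between miR-27a-3p and miR-27b-3p.

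On the 5p side the order was turned round for miR-27. MiR-27b-5p gave 10.98% (9.81 to 12.2%) and 11.35% (10.2 to 12.6%) of miR-27-5p reads, so miR-27a-5p was 7.96 ± 0.21 times higher (SD, n = 2). The miR-24 5p arms, which differ between the loci, were mostly from chromosome 8 as well. MiR-24-1-5p gave 2.56% (1.65 to 3.79%) and 3.49% (2.35 to 4.97%) of them. For miR-23 the chromosome 13 copy gave 70.4% (49.8 to 86.2%) and 81.0% (65.9 to 91.4%) of the few 5p reads, 19 of 27 and 34 of 42, and the first of these intervals includes equal parts.

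**Figure D3:**
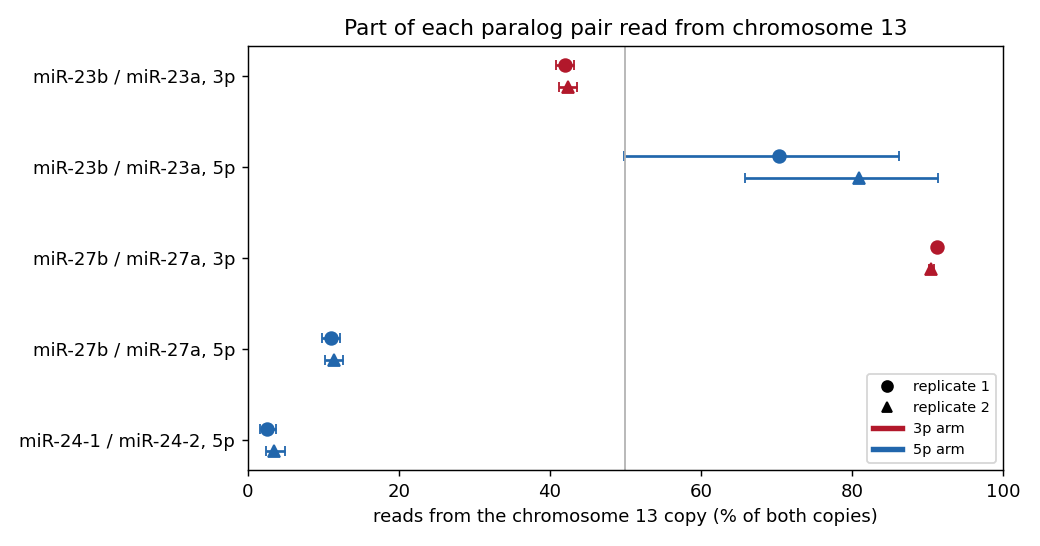
Percent of the reads of a paralog pair that came from the chromosome 13 copy, for 3p arms (red) and 5p arms (blue), with circles for replicate 1, triangles for replicate 2 and bars for the 95% Clopper-Pearson intervals; the vertical line marks equal parts. MiR-27b gave 91.3% and 90.5% of the 3p reads and 10.98% and 11.35% of the 5p reads of its pair.

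The ratio of miR-27 to miR-23 also differed between the clusters. On chromosome 13, miR-27b-3p had 13.7 times the reads of miR-23b-3p in replicate 1 and 10.9 times in replicate 2, a mean of 12.3 ± 2.0 (SD, n = 2). On chromosome 8, miR-27a-3p had 0.9503 and 0.8450 times the reads of miR-23a-3p, a mean of 0.898 ± 0.074 (SD, n = 2). These ratios compare different sequences, which a small RNA library need not capture alike, and how much of them this makes up was not tested.

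In total, 16 mature sequences were listed at 2 loci with at least 20 minor arm reads in each replicate. The higher locus held a median of 95.4% of these minor arm reads, from 60.0% to 100%. MiR-24, with 97.0% from chromosome 8, was exceeded by 5 of them, so its unequal division was near the middle of this group.

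MiR-3074 was the only other miRNA listed within 10 kb of the clusters. It is read from the minus strand, opposite the miR-24 hairpins, and 20 of the 21 bases of its 5p arm are complementary to miR-24-3p. The sequence is shown with the seed in capitals.
miR-3074-5p: gUUCCUGCugaacugagccag
MiR-3074-5p had 218 reads in replicate 1 and 246 in replicate 2, 1.82% and 2.16% of the number of miR-24-3p reads, and like miR-24-3p it is the same at both loci and was also listed at an alternative hairpin, on chromosome 8. Its 3p arm differs between the loci. The chromosome 13 hairpin had 15 and 23 reads of it, and the chromosome 8 hairpin 1 and 0. The chromosome 13 part was 93.8% (69.8 to 99.8%) and 100% (85.2 to 100%), whereas on the plus strand that of the miR-24 5p arms was 2.56% and 3.49%.

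The replicates were compared by arm with an exact binomial test, given the totals of arm reads, with Benjamini-Hochberg adjustment over 613 arms. Of these, 223 had an adjusted p under 0.05 (36.4%), 151 higher in replicate 2 and 72 higher in replicate 1. With edgeR's TMM scaling in place of the totals, 93 were higher in replicate 2 and 122 in replicate 1. In the clusters, 3 of the 10 arms tested passed, counting miR-24-3p once, and miR-23a-5p was under the minimum of 20 reads. MiR-27b-3p was lower in replicate 2, with 0.622% against 0.718% of arm reads, which is -0.21 on the log2 scale (two-sided exact binomial test, adjusted p = 1.9e-75). In absolute size, 61 of the 217 arms with at least 1000 reads in both replicates had a larger ratio, and their median was 0.12.

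MiR-23b-3p was higher in replicate 2 at a log2 ratio of 0.12 (adjusted p = 0.0087, same exact test), and so was miR-23a-3p at 0.09 (adjusted p = 0.016, same exact test). These 2 calls were lost with TMM (adjusted p = 0.49 and 0.76, exact test), whereas that of miR-27b-3p held. MiR-24-3p had a log2 ratio of -0.04 (adjusted p = 0.068, exact test) and miR-27a-3p one of -0.08 (adjusted p = 0.086, exact test), and both passed with TMM, as did miR-24-2-5p, whose ratio was -0.15 with the totals and -0.23 with TMM. Fewer cells that express a miRNA and fewer copies in each cell cannot be told apart in whole hearts.

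**Figure D4:**
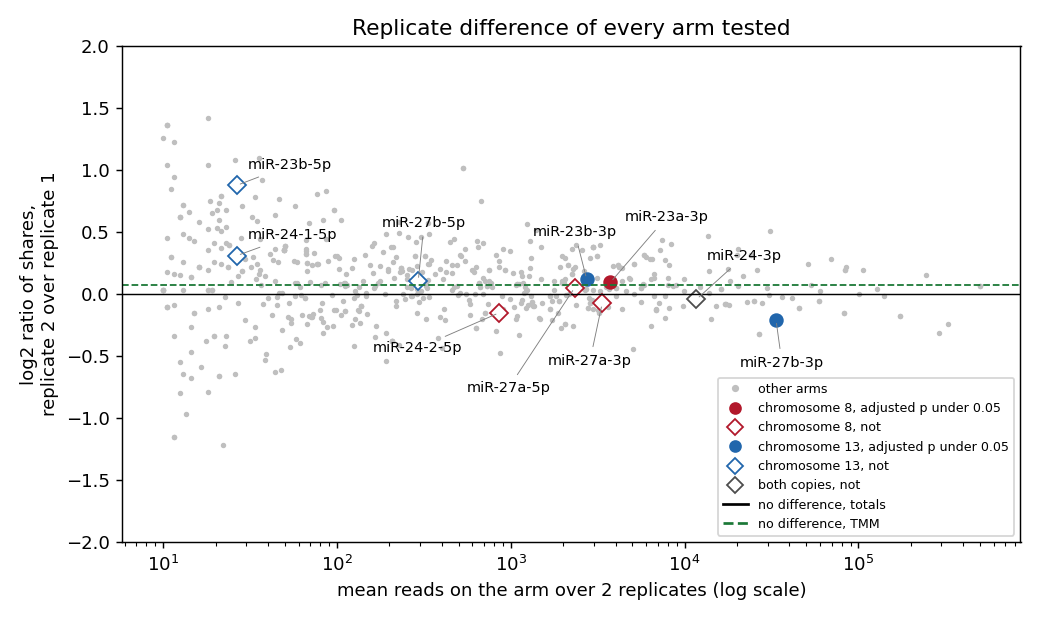
Log2 ratio of the share of an arm in replicate 2 over replicate 1 against its mean reads (log scale), with all arms tested in grey, chromosome 8 arms in red, chromosome 13 arms in blue and miR-24-3p in dark grey; filled circles have an adjusted p under 0.05. MiR-27b-3p lies at -0.21 and the arms with fewest reads spread most; the dashed line is where no difference lies under TMM, and 4 arms beyond 2 in absolute value are not drawn.

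Arm use was also compared between the replicates. By two-sided Fisher's exact test of 5p against 3p reads, with Benjamini-Hochberg adjustment, 34 of 382 precursors differed between the replicates (8.9%). None of the 6 hairpins of the clusters did at an adjusted p of 0.05, and 2 had an unadjusted p under 0.05 by this exact test. These were miR-27b, with 0.19 percentage points more on the 5p arm in replicate 2 (adjusted p = 0.096, Fisher's exact test), and miR-27a, with 2.14 points more (adjusted p = 0.18, Fisher's exact test). The log2 ratios of the 5p arms were 0.11 for miR-27b-5p and 0.05 for miR-27a-5p, neither past the threshold, beside -0.21 and -0.08 for the 3p arms.

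Lists of marker miRNAs were summed as shares of arm reads, and no cell type was measured. The cardiac muscle list, which includes miR-1a, miR-133a and miR-499, held 11.3% of arm reads in replicate 1 and 11.7% in replicate 2. All 6 miRNAs of this list were listed in replicate 1, and all but miR-208a in replicate 2. Repeated entries of a miRNA were not added up in the lists, whereas the total of arm reads still holds them. The shares of the lists are therefore lower than with each sequence counted once. Some minor arm reads are left out of the lists, such as miR-9-3p (10 and 10) and miR-21a-3p (84 and 87). MiR-126a, the endothelial marker, held 2.98% and 2.96%, and the smooth muscle pair miR-143 and miR-145a held 7.94% and 6.84%. Of this pair, miR-143-3p was higher in replicate 1 at a log2 ratio of -0.24, as 1 of the 72 arms called in that direction. MiR-145a-5p was nearly level at -0.006, and miR-145a-3p was higher in replicate 2 at 0.12. All 13 vessel miRNAs were listed in both replicates and held 17.6% and 16.3%. This list includes miR-126a, miR-143 and miR-145a, and its largest member was miR-143 (365222 and 301338 reads). Lists of other tissues held less. Of their 21 miRNAs, 18 were listed in replicate 1 and 17 in replicate 2, and miR-223 and miR-302a in neither. Their shares were 0.395% and 0.383% for pluripotent cells, 0.123% and 0.148% for neural tissue, 0.1115% and 0.1344% for erythroid cells, 0.0411% and 0.0539% for liver, 0.0374% and 0.0392% for epithelium and 0.00665% and 0.00610% for white blood cells. The neural share was mostly miR-128 (6014 and 7114 reads). MiR-9 had 237 and 178 reads on its 5p arm, and miR-124 had 3 in replicate 1 and was not listed in replicate 2. The erythroid share was mostly miR-486a (5519 and 6380 reads). In replicate 2 this count leaves out the highest 5p entry, with 6534 reads, whereas in replicate 1 it includes that entry, with 5456. The erythroid shares are thus not counted alike in both replicates. MiR-451a had 130 and 131 reads, and miR-144 was listed only in replicate 2, with 124. The part of any of these cells in the levels of miR-23, miR-27 and miR-24 was not tested. In a list of 13 miRNAs known from vessels, 14 of 29 arms differed between the replicates, 10 higher in replicate 1 and 4 in replicate 2, beside 36.4% of all arms, of which 72 were higher in replicate 1 and 151 in replicate 2. With TMM, 13 arms of the list were higher in replicate 1 and 2 in replicate 2, beside 122 and 93 of all arms. The median log2 ratio of the list was -0.015 against 0.078 over all arms tested with the totals, and -0.092 against 0.0017 with TMM. These counts and medians include repeated entries. Of the arms higher in replicate 1, miR-21a-5p (186562 and 160726 reads) entered at 2 hairpins. So did both arms of miR-199a and a lower entry of miR-218 (25965 and 24400 reads). The highest entry of miR-218-5p was not called (adjusted p = 0.13, exact binomial test). MiR-92a-3p entered at 2 hairpins among those higher in replicate 2. The list with each sequence counted once was not tested.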

How the data were processed

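Total RNA of E9.5 hearts was extracted with Trizol, and the authors mapped clean small RNA reads (single-end) to mm9 with miRDeep2, each sample separately. The authors deposited raw read counts per precursor (total, mature, loop and star), with no normalization, and a rounded miRDeep2 score for each precursor. The version of miRDeep2, trimming, and how reads with several matches were counted are not given in the sources used here.

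Each entry's mature sequence was located at the 5′ or 3′ end of its precursor, and reads were counted by arm. All 696 distinct precursor positions were identical to NCBIM37 once brought to coordinates from 1. Replicates were paired by at least 50% mutual overlap on the same strand. Arms with at least 20 reads in sum were tested, and precursors with at least 20 arm reads in each replicate for arm use. With 1 group, no condition could be compared and edgeR's quasi-likelihood test could not be used. Both tests were tested on data simulated with counting error only, which leaves out any further variation between libraries. The floor is 3 reads, 5.92e-05% and 6.07e-05% of arm reads. The text names all members, every miRNA within 10 kb, their neighbours in rank and the marker and vessel lists, all chosen with earlier results of these data known. Alternatives varied scaling, minimums, counting of repeated sequences and denominators. Software was Python 3.11.15, scipy 1.17.1, R 4.3.3, edgeR 4.0.16, DESeq2 1.42.0 and RNAfold 2.7.2.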

Additional observations from a re-analysis of the deposited data

Results flagged for a closer look

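Loop reads are in no comparison above. MiR-27a had 7 of them in each replicate, above the 3 reads that a count of 0 allows, and was the only hairpin of the clusters above it in both. MiR-27b had 6 and 2, and the other known hairpins had 0.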

How the results depend on the processing

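The summed share of the clusters depended on how miR-24-3p was counted. The value of 1.87% became 1.59% when every mature sequence of the tables entered only by its highest entry, and, under choices made after seeing the data, to 1.40% without the alternative hairpins and 1.17% with miR-24-3p counted once. The chromosome 13 part of miR-27 fell from 90.9% to 85.5% with all reads of the precursors and to 11.2% with the minor arm, that of miR-23 rose from 42.2% to 75.7% with the minor arm, and that of miR-24 rose from 3.03% to 48.3% with all reads, which include the shared 3p reads. The other denominators, minimums and scalings moved these shares, the arm shares and both counts of calls by less than the replicate SD or 1.5 times the count. The number of arms called ran from 176 with each mature sequence once to 223, and was 212 with DESeq2 size factors. MiR-27a-5p turned from 0.05 to -0.024 with TMM and -0.011 with DESeq2 size factors, and passed with none of them. With mature reads as listed, miR-27a fell by 0.53 because opposite arms were compared. No paired analysis was possible because there is 1 group. Leaving out 1 of 2 replicates gives the value of the other, which says nothing on stability, and leaves no count of calls. The depth leaves the 5p arms of miR-23a, miR-23b and miR-24-1 at 8 to 34 reads.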
